A study of Mus musculus with 4 samples.

Results

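The 613 weaker Isl1 regions at gene ends are short stretches of mouse chromatin, next to the start or the far end of a gene, where an Isl1 peak was called in both replicates with a modest score. They were chosen from 6834 shared regions, each a joined span of peaks that overlapped by at least 1 bp between the 2 peak lists. A shared region was kept when its centre, the midpoint of its longest overlap, lay within 1 kb of either end of a RefSeq protein-coding gene, and when the lower of its 2 replicate scores was under 316. The members made up 65.8% of the 932 shared regions at gene ends (Wilson 95% interval 62.7 to 68.7%) and 8.97% of all shared regions. They are set against the 319 stronger gene-end regions (lower score of 316 or more) and the 5529 weaker regions elsewhere in the genome. The 373 stronger regions elsewhere are added where widths and replicate shares are compared. The score is the authors' own value per peak, its formula is not given in the sources used here, and it served as a selection, so score levels are a description and carry no test.

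The data came from ChIP-seq, in which DNA bound by a protein is pulled down with an antibody and sequenced. Each of the 2 Isl1 ChIP samples held chromatin of genital tubercles from wildtype CD1 mouse embryos at E14.5 (embryonic day), fixed in 1% formaldehyde for 20 min, sheared to 150 to 400 bp, and immunoprecipitated, 500 µg at a time, with 5 µg of an anti-ISL1 antibody (rabbit monoclonal). The 2 input DNA samples came from the same stage, strain, genotype and tissue, had no antibody step, and lack a peak list, so they were not used here. Nothing in the labels says whether the replicates were separate litters or pools, and no sample lacked Isl1. The lists held 8860 peaks in replicate 1 and 10162 peaks in replicate 2, with scores of at least 20 in both and no read totals, so the depth behind each peak is unknown.

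Isl1 is a LIM-homeodomain transcription factor, a class whose homeodomain recognises short A/T-rich words in DNA, and it is known from heart, pancreas, motor neurons and the mesenchyme of the genital tubercle, the embryonic outgrowth of the penis and clitoris. Gene starts carry promoters, where RNA polymerase and general factors assemble. Many promoters of genes used in all cells are rich in CpG and hold words of widely present factors, such as the GC box of Sp1, while developmental factors often act through enhancers far from the start. In bulk tissue, fewer bound cells and less binding per cell cannot be told apart.

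To show what the DNA at these regions looks like, promoter windows of members were read from RefSeq's promoter table (GRCm38.p6, the mm10 coordinates), each 300 bases long, from 250 before to 50 after a gene start. The first 3 windows are those of the members with the highest lower scores among 14 whose window held the LIM homeodomain word CTAATG on either strand, which is printed in capitals. All sequences run from 5′ to 3′ along the gene's strand. Zcchc2 encodes a zinc finger protein, Zfp729a another one, and Rab28 a small GTPase.
Zcchc2 (chr1:105990156-105990455, + strand): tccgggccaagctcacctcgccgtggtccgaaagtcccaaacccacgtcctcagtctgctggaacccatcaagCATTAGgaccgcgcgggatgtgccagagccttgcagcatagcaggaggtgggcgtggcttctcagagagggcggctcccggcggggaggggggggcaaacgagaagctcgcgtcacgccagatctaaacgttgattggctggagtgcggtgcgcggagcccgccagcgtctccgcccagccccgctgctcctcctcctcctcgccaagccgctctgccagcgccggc
Zfp729a (chr13:67637732-67638031, - strand): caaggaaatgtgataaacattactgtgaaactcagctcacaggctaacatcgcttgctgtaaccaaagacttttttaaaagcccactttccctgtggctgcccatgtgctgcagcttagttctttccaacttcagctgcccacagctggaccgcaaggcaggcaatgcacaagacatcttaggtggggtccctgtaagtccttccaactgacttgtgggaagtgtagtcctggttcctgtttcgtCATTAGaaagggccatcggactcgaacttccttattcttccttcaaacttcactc
Rab28 (chr5:41708130-41708429, - strand): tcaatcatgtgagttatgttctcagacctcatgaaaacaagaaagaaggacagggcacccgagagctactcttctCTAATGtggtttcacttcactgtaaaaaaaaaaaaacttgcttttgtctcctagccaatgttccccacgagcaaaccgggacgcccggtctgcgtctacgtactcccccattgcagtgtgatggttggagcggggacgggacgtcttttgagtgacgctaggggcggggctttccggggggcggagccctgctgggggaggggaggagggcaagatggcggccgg

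The region at Zcchc2 scored 378 in replicate 1 and 284 in replicate 2 and was centred 165 bp before the start. The region at Zfp729a scored 399 and 253, and that at Rab28 scored 434 and 249. All 3 were called with the higher score in replicate 1. The middle of the word lay 9.5 bases from the region's centre at Zcchc2, 24.5 bases at Rab28 and 83.5 bases at Zfp729a.

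Most member windows lacked that word. The next pair is shown because its windows hold the most frequent of the 18 words searched, the GC box GGGCGG (capitals, either strand). Cct8 encodes a subunit of the chaperonin that folds actin and tubulin, and Ncln encodes nicalin, a membrane protein of the endoplasmic reticulum.
Cct8 (chr16:87495820-87496119, - strand): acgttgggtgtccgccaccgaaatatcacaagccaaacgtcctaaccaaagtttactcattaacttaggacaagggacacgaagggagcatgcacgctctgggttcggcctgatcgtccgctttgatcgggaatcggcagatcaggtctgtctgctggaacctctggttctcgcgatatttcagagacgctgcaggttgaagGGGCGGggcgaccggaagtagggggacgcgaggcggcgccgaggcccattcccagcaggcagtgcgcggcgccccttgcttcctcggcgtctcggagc
Ncln (chr10:81496314-81496613, - strand): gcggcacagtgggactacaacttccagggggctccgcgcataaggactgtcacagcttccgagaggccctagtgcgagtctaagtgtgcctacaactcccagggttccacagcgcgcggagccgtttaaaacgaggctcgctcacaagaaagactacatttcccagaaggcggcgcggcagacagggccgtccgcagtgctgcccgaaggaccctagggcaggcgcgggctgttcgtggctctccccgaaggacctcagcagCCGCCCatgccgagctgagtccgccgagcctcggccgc

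The region at Cct8 scored 308 and 373 and was 182 bp wide, and the region at Ncln scored 364 and 305 and was 234 bp wide. The middle of the GC box lay 60.5 bases from the region's centre at Cct8. At Ncln it lay 155.5 bases away, outside the called region. The windows of Cct8 and Ncln held 60.3% and 65.0% G or C. The CpG ratio, which divides the CpG count seen by the count the C and G content would give, was 1.03 at Cct8 and 0.853 at Ncln, both above the limit of 0.6 used here for a CpG-rich window.

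A further set shows the central 101 bases of member regions, because some words of 7 letters, picked after seeing the data, had unequal shares in weaker and stronger gene-end regions. The word CTTAAAG, read on either strand, is in capitals. Lias encodes lipoic acid synthetase, and Rbx1 the RING subunit of cullin ubiquitin ligases.
Lias (chr5:65391432-65391532, + strand): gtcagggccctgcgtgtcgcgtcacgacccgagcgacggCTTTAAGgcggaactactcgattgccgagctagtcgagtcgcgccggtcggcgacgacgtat
Rbx1 (chr15:81466162-81466262, + strand): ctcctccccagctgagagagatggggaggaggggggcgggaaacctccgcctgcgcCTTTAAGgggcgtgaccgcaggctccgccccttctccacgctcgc
1110065P20Rik (chr4:124850591-124850691, - strand): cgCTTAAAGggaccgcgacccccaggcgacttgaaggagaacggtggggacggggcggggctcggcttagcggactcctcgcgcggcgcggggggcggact

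The region at Lias, which also lies 51 bp before the start of the ribosomal protein gene Rpl9, scored 322 and 206. The regions at Rbx1 and 1110065P20Rik scored 203 and 176, and 196 and 174. A second word, GGTCCTA, was picked because it was frequent in the stronger regions, and only 6 members held it. The example with its reverse complement in capitals is Mrps27, a subunit of the small mitochondrial ribosome.
Mrps27 (chr13:99344693-99344793, + strand): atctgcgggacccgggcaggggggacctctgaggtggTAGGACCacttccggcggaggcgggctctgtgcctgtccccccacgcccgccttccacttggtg

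The members' scores covered a wide range in both replicates. In replicate 1 they ran from 21 to 847 with a median of 167, and in replicate 2 from 24 to 646 with a median of 152. The lower score had a median of 124 and quartiles of 83 and 204. For comparison, the stronger gene-end regions had medians of 668 and 561, and the weaker regions elsewhere had medians of 93 and 115. Within the score limit, members therefore lay higher than weaker regions elsewhere in each list.

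The limit fell within a continuous run of scores. Just inside it were the regions at Cct8 (lower score 308), Atf6 (312), and H4c14, Cited1 and Aldh4a1 (313 each). Just outside it were those at Plekhh3 and Foxc2 (316 each) and at Notch3, Frat1 and Loxl1 (317 each). The genes on either side are of mixed kinds: Cited1 is a transcriptional coregulator, Atf6 a sensor of unfolded proteins, Foxc2 a forkhead factor of mesenchyme and Notch3 a receptor of the Notch pathway. Aldh4a1, a mitochondrial enzyme of proline breakdown, scored 847 in replicate 1 and 313 in replicate 2, so that replicate 2 alone placed it among the members.

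Fzd1, Nup43, Ncln, Eif2s3x and Ppp2r5b completed the 10 highest by lower score. Fzd1 encodes a Wnt receptor (364 and 305), Nup43 a nuclear pore protein (398 and 305), Eif2s3x a subunit of an initiation factor of translation (510 and 305) and Ppp2r5b a regulatory subunit of a protein phosphatase (304 and 316). At the low end were 1700034E13Rik (21 and 90), Gas1, a hedgehog co-receptor (21 and 83), Fat4, a large cadherin (62 and 24), a region shared by the ends of Rpl7 and Rdh10 (26 and 54), and Fam186a (26 and 51). The low end thus held a hedgehog and a retinoic acid gene beside a ribosomal protein gene.

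Which replicate gave the higher score differed between the classes of regions. Replicate 1 gave the higher score in 353 of 613 members (57.6%, 53.6 to 61.4%), against 76.8% (71.9 to 81.1%) of stronger gene-end regions and 36.4% (35.1 to 37.6%) of weaker regions elsewhere. In stronger regions elsewhere the share was 44.0% (39.0 to 49.0%). The lower of the same 2 scores set the classes, and the intervals cover counting error only, so the shares are a description. Among members nearest a gene start the share was 60.8% (271 of 446), and among those nearest a far end it was 26.8% (11 of 41). The members at far ends thus leaned to replicate 2, as weaker regions elsewhere did. The greatest ratios between the scores were 6.38 at the far end of Alg13 (26 and 166), 5.80 at Alg9 (41 and 238), 5.40 at Fosl2 (232 and 43), 4.97 at 2410002F23Rik (37 and 184) and 4.48 at C2cd5 (46 and 206). Alg9 and Alg13 encode enzymes of N-glycan synthesis, and Fosl2 an AP-1 factor. Nothing in the sources states that scores can be compared between libraries, and the part of depth in these shares was not tested.

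**Figure D1:**
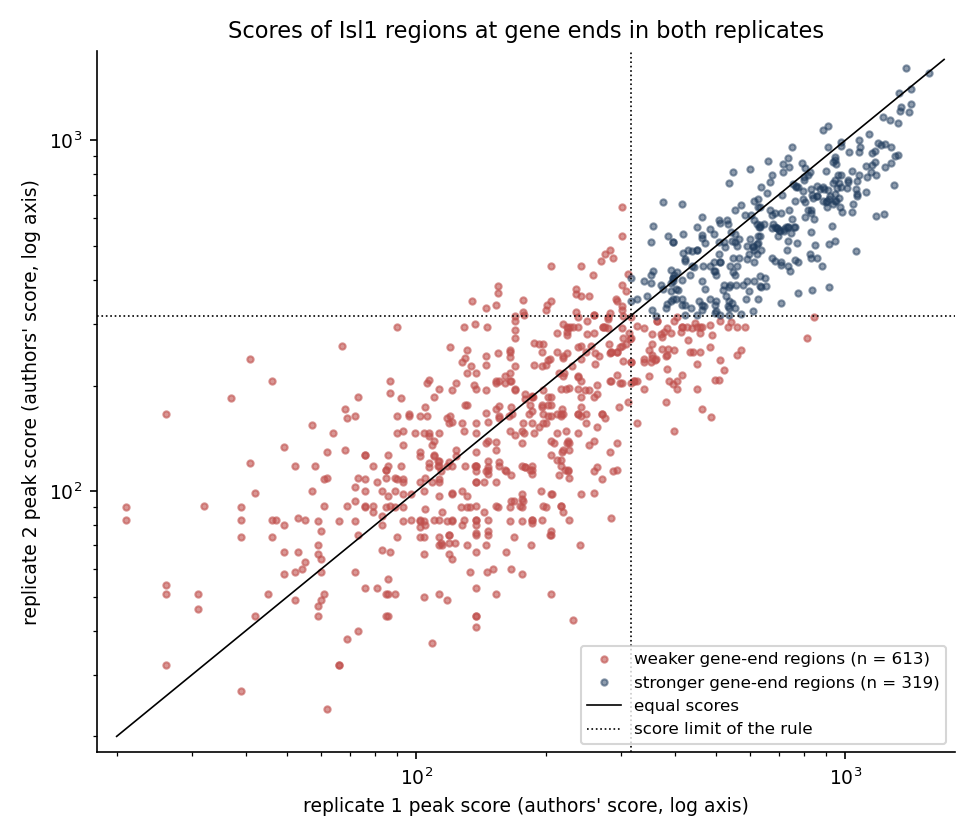
Scores of each region at a gene end in replicate 1 (x axis) and replicate 2 (y axis), both on log axes, for the 613 weaker (red) and 319 stronger (blue) regions. Dotted lines mark the limit of 316 that separates the groups, and more of the stronger points (76.8%) than of the weaker points (57.6%) lie below the line of equal scores.

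Weaker gene-end regions lay mostly at gene starts, which the rule did not use, since it took either end. The end could be told for 487 members whose nearest gene had an entry in the promoter table, and not for 126. It was the start in 446 of 487 (91.6%, 88.8 to 93.7%), against 252 of 259 stronger regions (97.3%, 94.5 to 98.7%). The difference was -5.72 percentage points (Newcombe 95% interval -8.84 to -2.21), which leaves out 0. The share at far ends was 8.42% of members (41 of 487) and 2.70% of stronger regions. These intervals cover counting error only, and regions of the same libraries are not independent replicates.

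Around the start, members sat over the promoter, with a median position 36 bp before the start (a signed -36 bp, quartiles -115 and 67.8 bp). The stronger regions had a median of -68 bp (quartiles -145 and 38.2 bp). Of the members nearest a start, 46.4% were within 100 bp of it and 76.7% within 250 bp, against 40.5% and 77.8% of stronger regions. The share outside the gene was 61.2% of members and 68.3% of stronger regions, a difference of -7.04 points whose interval (-14.2 to 0.39) includes 0. The share at divergent or neighbouring promoters did not differ beyond counting error: 18% of members and 16.4% of stronger regions at a start had starts of 2 or more genes within 1 kb (difference 1.55 points, -4.44 to 7.10).

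**Figure D2:**
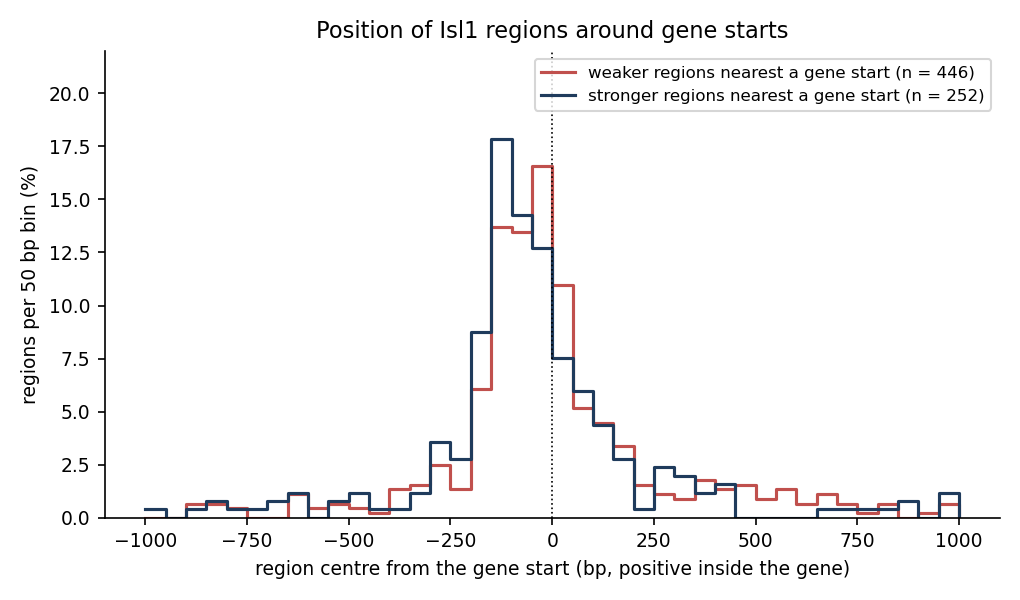
Distance of the region centre from the gene start in bp (x axis, positive inside the gene) against the share of regions per 50 bp bin (y axis), for 446 weaker (red) and 252 stronger (blue) regions nearest a start. Both groups peak just before the start, with medians of -36 and -68 bp.

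The 41 members nearest a far end included regions at Wls, which carries Wnt ligands to the cell surface (326 and 296), at Acvr1, a Bmp type I receptor (186 and 156), at Lef1, a nuclear effector of Wnt signalling (85 and 90), and at Cdc6, a DNA replication licensing factor (153 and 138). Only 3 of the 41 had any start of the promoter table within 1 kb. Their median lower score was 85, against 137 for members nearest a start. The far-end members were thus both fewer and lower in score.

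Peaks at the weaker gene ends were narrow. The joined region had a median span of 173 bp, with quartiles at 150 and 254 bp, against 288 bp in stronger gene-end regions and 250 bp in weaker regions elsewhere. In replicate 1 the members' peaks had a median width of 155 bp and in replicate 2 of 154 bp, while weaker regions elsewhere had 190 and 219 bp. The 373 stronger regions elsewhere had a median span of 394 bp. In both score classes, regions at gene ends thus had the smaller median. Width and score come from the same peak calls, so widths were also set side by side within bins of the lower score. They are given as a description.

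The members' width rose less with the score than that of weaker regions elsewhere. From the lowest to the highest bin, the members' median peak width went from 141 to 174 bp in replicate 1. In replicate 2 it went from 155 to 175.5 bp. Weaker regions elsewhere went from 148 to 312 bp in replicate 1 and from 171.5 to 334 bp in replicate 2. In the bin of lower scores from 20 to 50 the median joined width was 179 bp in 45 members and 213 bp in 1104 regions elsewhere. In the bin from 101 to 150 it was 168 bp in 132 members and 284 bp in 997 regions elsewhere. In the bin from 201 to 315 it was 192.5 bp in 160 members and 367 bp in 511 regions elsewhere. In all 5 bins, and in each replicate, the members' median was the smaller one. Far-end members were wider than start members, with a median of 222 bp against 174 bp, and in each bin the far-end median was the larger one, although the bins held only 3 to 13 far-end members.

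**Figure D3:**
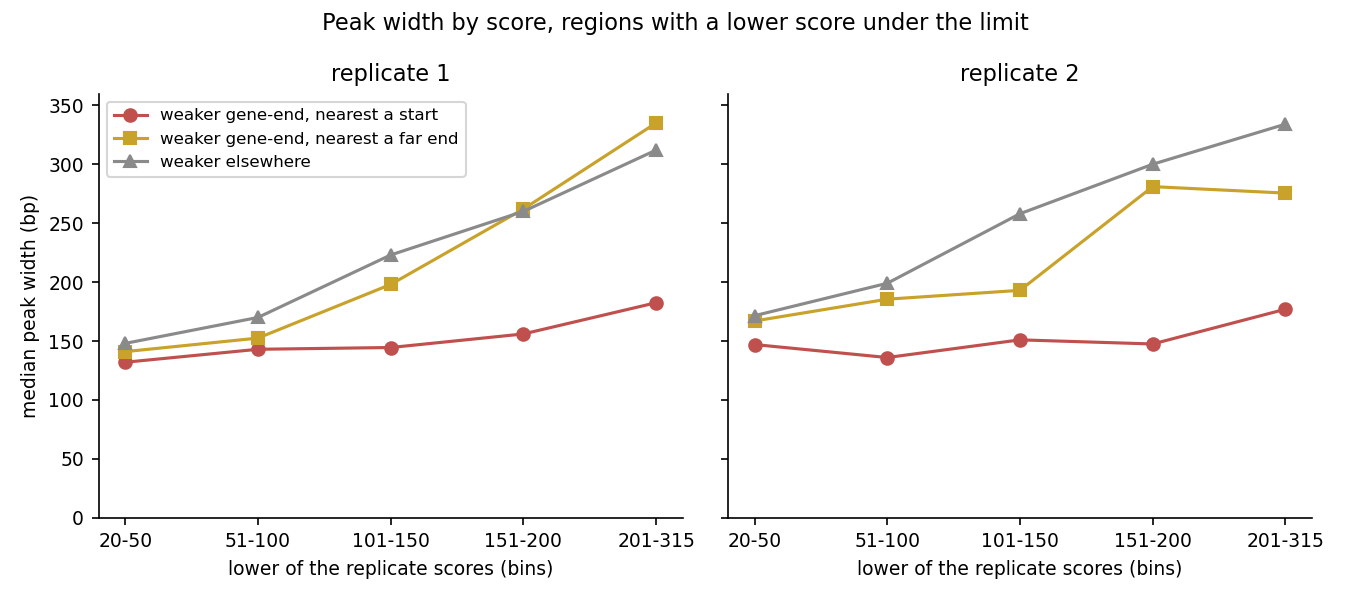
Median peak width in bp (y axis) in replicate 1 (left) and replicate 2 (right) by bin of the lower score (x axis), for members nearest a start (red), members nearest a far end (yellow) and weaker regions elsewhere (grey). The members at starts stay below 200 bp in every bin, while regions elsewhere reach 312 bp in replicate 1 and 334 bp in replicate 2.

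The widest joined members departed from this. They were at Omd (919 bp), a matrix proteoglycan gene, Nup62 (610 bp), a nuclear pore gene, Dcn (584 bp), which encodes the matrix proteoglycan decorin, Ppp2r5b (577 bp) and C9 (574 bp), a complement gene. The regions at Nup62 and C9 were nearest a far end. At Omd the replicates differed, with a peak of 301 bp in replicate 1 and of 843 bp in replicate 2.

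Members had fewer shared regions close by than weaker regions elsewhere. The next shared region was a median of 109 kb away, against 97.7 kb for stronger gene-end regions and 51.8 kb for weaker regions elsewhere. A second shared region lay within 10 kb of 13.7% of members (11.2 to 16.7%), against 19.7% (15.8 to 24.5%) of stronger gene-end regions and 21.6% (20.5 to 22.7%) of weaker regions elsewhere. Peaks found in a single list also occurred at gene ends. Among lone peaks with scores under 316, 229 of 1908 in replicate 1 (12.0%) and 173 of 3225 in replicate 2 (5.36%) lay within 1 kb of a gene end, with median widths of 121 and 123 bp.

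The members' promoters were CpG-rich. The centre of 320 members and of 186 stronger regions lay in a promoter window, and 21263 windows of protein-coding genes served as background. The median content of G and C was 60.2% in member windows, 61.5% in windows of stronger regions and 56.3% over all promoters. A CpG-rich window was found for 86.6% of members (82.4 to 89.9%), 88.2% of stronger regions (82.7 to 92.1%) and 47.6% of all promoters (47.0 to 48.3%). The intervals of weaker and stronger regions overlapped, and both lay above that of all promoters. Within the members, width did not follow this class: the median was 167 bp in 277 CpG-rich windows and 171 bp in 43 others.

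Homeodomain words had lower shares in member promoters than in promoters at large, beyond counting error for TAATTA alone, and shares within counting error of those in CpG-rich promoters. The LIM homeodomain word CTAATG was in 4.38% of member windows (2.62 to 7.21%), in 3.76% of stronger ones (1.83 to 7.56%), in 6.44% of all promoters (6.12 to 6.78%) and in 3.39% of CpG-rich promoters (3.05 to 3.76%). Against CpG-rich promoters, which are nearest to them in base content, the member share was within its counting error. The general homeodomain word TAATTA was in 1.56% of member windows and 4.53% of all promoters, and the posterior Hox word CAATAAA in 2.19% and 3.85%. Each of the 2 words was in 2.02% of CpG-rich promoters, which lies within the counting error of the member shares. A match is a description of letters and does not mark a bound site, and a missing match says only that these letters are not in the window.

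Words of general promoter factors were frequent. The GC box was in 61.9% of member windows (56.4 to 67.0%) and 61.8% of stronger ones, against 46.2% of all promoters. Within CpG-rich windows alone it was in 66.1% of members (60.3 to 71.4%), against 74.1% (73.3 to 75.0%) of CpG-rich promoters, so the order turned round with the background. The word CCGGAAG of ETS factors was in 19.7% of member windows (15.7 to 24.4%), 18.3% of stronger ones, 11.6% of all promoters and 19.8% of CpG-rich promoters. The word GCATGCGC of NRF1, a factor of genes for mitochondrial function, was in 7.19% of member windows (4.84 to 10.6%), 3.52% of all promoters and 6.39% of CpG-rich promoters, the last within the member interval.

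The word TATAAA of the TATA box was in 10% of member windows (7.17 to 13.8%), in 5.91% of stronger ones (3.33 to 10.3%), in 12.6% of all promoters and in 5.59% of CpG-rich promoters (5.16 to 6.05%). Within CpG-rich windows it was in 9.03% of members (6.19 to 13.0%). The palindromic E-box CACGTG was in 7.81% of member windows (5.35 to 11.3%) and in 11.8% of stronger ones (7.94 to 17.3%). Of the other words, CCAAT was in 35.3% of member windows and 38.2% of all promoters, the AAGATGG of YY1 in 9.06% and 6.24%, the AP-1 word TGANTCA in 5.31% and 6.99%, and AGATAA of GATA factors in 5.31% and 9.65%. Within CpG-rich windows the order of the last pair of words turned round as well: each was in 5.42% of members (3.31 to 8.74%), against 3.46% (AP-1) and 4.31% (GATA) of CpG-rich promoters. CpG-rich promoters held AAGATGG at 7.01% and CCAAT at 36.5%, each within the interval of the member share (6.38 to 12.7% and 30.3 to 40.7%). The words ACATTCC of Tead, CTTTGAT of Tcf/Lef, TGTTTAC of forkhead factors, ACTACAA of Znf143 and Thap11, GACCACCC of Gli and the CRE (TGACGTCA) were each in 1.56 to 3.12% of member windows. Both strands were searched, and CCAAT can overlap the homeodomain words.

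**Figure D4:**
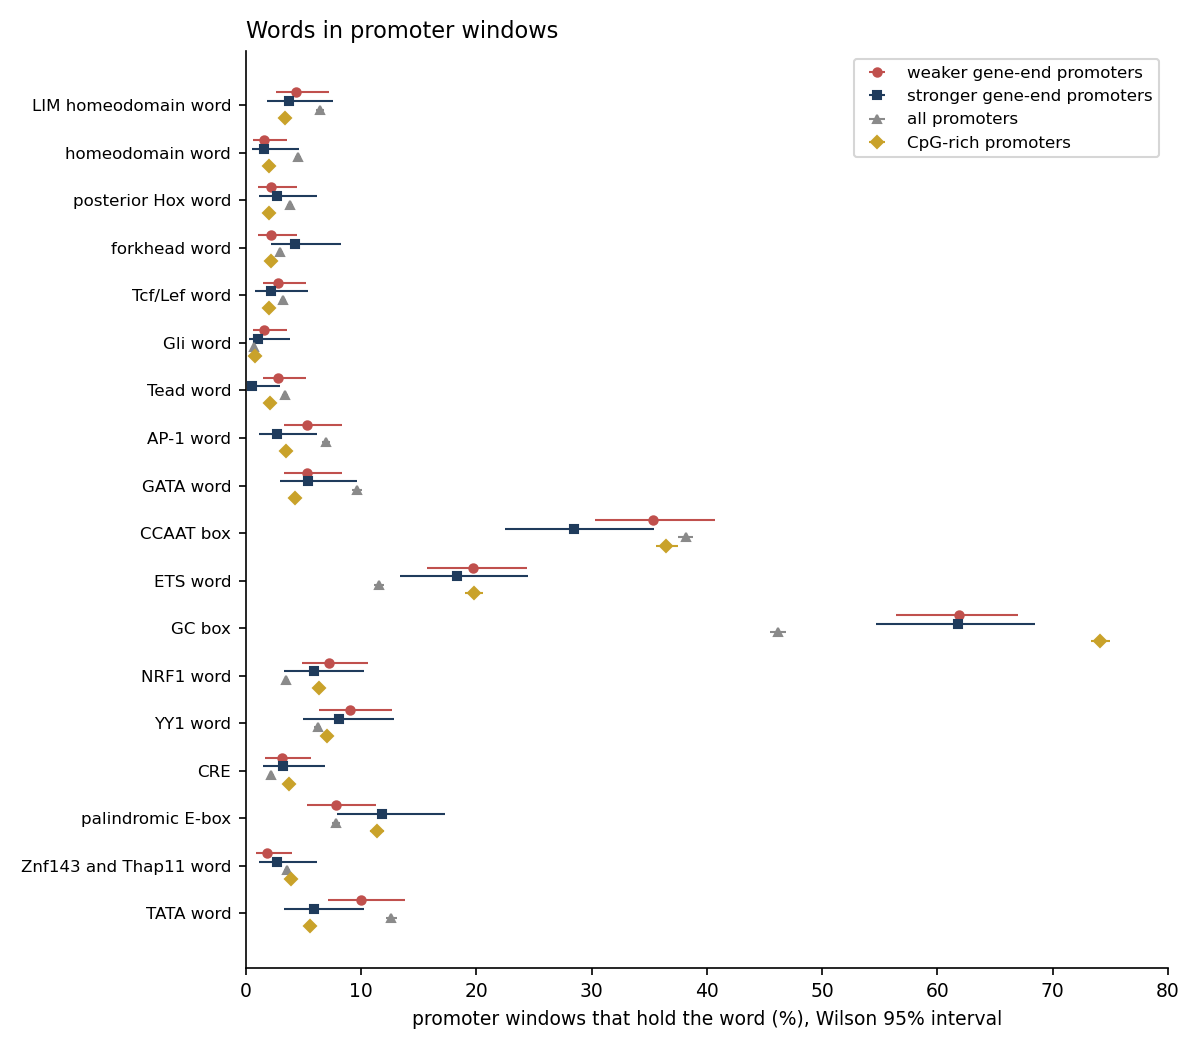
Share of promoter windows that hold each of 18 words (x axis, percent with Wilson 95% intervals) for 320 weaker (red) and 186 stronger (blue) gene-end regions, all 21263 promoter windows (grey) and 10129 CpG-rich windows (yellow). For every word the red and blue intervals overlap, and the GC box is the most frequent word in all 4 sets, at 61.9% of the weaker and 61.8% of the stronger windows.

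At the centre of the regions, some words had unequal shares in weaker and stronger promoters. The word CTTAAAG was in the central 101 bases of 25 of 268 members (9.33%, 6.40 to 13.4%), 4 of 164 stronger regions (2.44%, 0.952 to 6.10%), 1.69% of all promoters in a stretch of the same length and 1.74% of CpG-rich promoters. CCTTTAA and CCCTTTA, which overlap it by shared letters, were in 9.33% and 6.34% of members and in 3.05% and 2.44% of stronger regions. At least 1 of these 3 words was in 33 members (12.3%, 8.90 to 16.8%), against 8 stronger regions (4.88%, 2.49 to 9.33%) and 3.61% of all promoters. The reverse held for GGTCCTA, in 2.24% of members (1.03 to 4.80%), 12.8% of stronger regions (8.53 to 18.8%) and 0.898% of all promoters. These words were picked from all words of 7 letters in the same stretches, so their shares carry no test.

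The 25 members with CTTAAAG lay at genes of varied kinds. Beside Lias, Rbx1 and 1110065P20Rik they included Wdr5, a subunit of histone H3 methyltransferase complexes (201 and 156), Smad6, an inhibitor of Bmp signalling (161 and 213), and Gmeb1, a DNA-binding factor (110 and 83). Their lower scores ran from 206 at Lias down to 38 at Yipf1. These genes are named after their values were seen.

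Named genes near the members were counted in 23 gene lists that hold 1289 genes. Over the whole gene table, 724 of 21887 protein-coding genes (3.31%) had a weaker region within 1 kb of an end, and 367 (1.68%) had a stronger one. Of the list genes, 94 (7.29%) had a member region. The shares are read beside the 3.31% and not as tests. A region counted for every gene with an end within 1 kb. Ends of 2 or more genes lay within 1 kb of 122 of 613 members (19.9%). Of the 367 genes with a stronger region, 19 also had a weaker one, beside 3.31% of all protein-coding genes.

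In 10 lists of general cell function together, 68 of 805 genes (8.45%, 6.72 to 10.6%) had a member region. Of the 68 regions at these genes, 2 were nearest a far end. A stronger gene-end region lay at 35 of the 805 genes, beside 1.68% of all protein-coding genes. DNA repair genes had the highest share with a member region of the 23 lists, 11 of 78 (14.1%, 8.06 to 23.5%). They were led by Palb2, a partner of BRCA2 (220 and 243), Fancm, a translocase of the Fanconi pathway (253 and 135), Rad54l, a motor of homologous recombination (130 and 176), and Ddb2, which recognises ultraviolet damage (186 and 115). The region at Fancm lay 264 bp from its start and 92 bp from that of another gene. Of the 11 regions, 8 were centred within 100 bp of the gene's end, such as 10 bp away at Palb2, 39 bp at Rad54l and 42 bp at Ddb2. The interval of the DNA repair share overlapped that of each other cell function list, so its rank is a description.

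Genes of protein synthesis were among them. Member regions lay at 7 of 64 translation factor and tRNA synthetase genes (10.9%), led by Eif2s3x and the eIF2B subunits Eif2b3 (164 and 164), Eif2b4 (161 and 115) and Eif2b5 (201 and 90). Mitochondrial ribosomal protein genes had 8 of 78 (10.3%), among them Mrpl11 (384 and 223), Mrps27 (238 and 213), Mrpl19 (196 and 249) and Mrpl23 (167 and 166). A single region of 347 bp (196 and 83) lay within 100 bp of the starts of both Mrps11 and Mrpl46. Cytosolic ribosomal protein genes had 6 of 79 (7.59%), with Rpl9 (322 and 206), Rpl3 (227 and 197), Rpl32 (107 and 117) and Rpl5 (128 and 100).

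Cell cycle genes had 8 of 79 (10.1%), among them the licensing factor Cdt1 (242 and 238), the kinase inhibitor Cdkn1b (223 and 196), the mitotic kinase Cdk1 (253 and 194) and Aurka, a spindle kinase (153 and 171). Proteasome, chaperone and ubiquitin genes had 7 of 77 (9.09%), with Cct8, Cct5 (354 and 280), Psmd3 (572 and 253) and Rbx1. That count was 4 when the mean or the higher of the scores had to be under the limit. Splicing genes had 7 of 91 (7.69%), among them Ewsr1 (429 and 270), Snrpc (316 and 234) and Hnrnpk (165 and 206 for the higher of its pair of regions). Chromatin genes had 7 of 105 (6.67%), or 14 with a distance limit of 2 kb, led by the 5-methylcytosine oxidase Tet1 (446 and 302), Trrap (213 and 166), the histone methyltransferase Kmt2a (217 and 164) and Wdr5 (201 and 156). Membrane traffic genes had 4 of 86 (4.65%), or 8 without replicate 2, and oxidative phosphorylation genes 3 of 68 (4.41%). The intervals of these 2 lists and of the chromatin genes include 3.31%.

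Signalling, tubercle and matrix genes had member regions as well, at 26 of 358 genes in 8 lists (7.26%, 5.00 to 10.4%). A stronger gene-end region lay at 12 of the 358 genes, beside 1.68% of all protein-coding genes. Wnt pathway genes had 8 of 73 (11.0%, 5.66 to 20.2%), or 5 when replicate 1 was used alone, without replicate 2, and 4 when the higher score had to be under the limit. The receptor gene Fzd1 had a region at chr5:4757919-4758261 that scored 364 and 305, Wls one of 326 and 296, the cytoplasmic transducer Dvl3 one of 386 and 254, and Fzd2, a second receptor, one of 250 and 280. The secreted enhancers of Wnt signalling Rspo1 (121 and 99) and Rspo2 (178 and 317), the coactivator Bcl9 (124 and 204) and Lef1 completed the list. Receptors, transducers and nuclear effectors were thus all present among the members.

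Fzd2 was the 1 gene with 3 member regions, all on one side of the same gene end on chromosome 11. They were centred 733, 272 and 26 bp outside the gene and scored 250 and 280, 106 and 204, and 60 and 64. The scores fell towards the gene end in both replicates. A further 21 genes had 2 member regions each. Mageb3 and Ctdspl2 shared a pair (416 and 293, 354 and 244), as did Ppox and Usp21 (259 and 317, 178 and 146). Pomt1, an O-mannosyltransferase, had 304 and 235 near its start and 137 and 300 further inside. Smad6 had 263 and 201 and, nearer the start, 161 and 213. Meis1, a homeobox cofactor of Hox proteins, had one region on each side of its start, of 201 and 229 outside and 263 and 152 inside. Pafah1b3 and Nus1 had regions of 267 and 243 and of 255 and 260, each with a weaker one beside it.

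Bmp and Tgf-beta genes had 4 of 52 (7.69%), with Smad6, Acvr1, the ligand Bmp7 (93 and 135) and the ligand Tgfb3 (85 and 44). Fgf pathway genes had 3 of 40 (7.5%), all at starts: the feedback inhibitor Spry1 (302 and 204), the adaptor Grb2 (271 and 166) and the Ras activator Sos1 (238 and 166). Notch genes had 2 of 28, the coactivator Maml3 (360 and 236) and the target gene Hes1 (85 and 51). Hedgehog genes had Gas1 alone of 22, steroid and retinoic acid genes had Rdh10 alone of 37, and the transcription factor genes of the tubercle had Meis1 alone of 59 (1.69%, 0.3 to 9%). The intervals of all these lists include 3.31%. Without replicate 2 the counts were 6 for Fgf genes, 4 for tubercle transcription factor genes and 2 for steroid and retinoic acid genes. All these counts describe the listed genes alone. Homeobox genes outside the lists also had member regions, such as Hoxa10 (69 and 91) and Emx2 (249 and 156).

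Mesenchyme and matrix genes had 6 of 51 (11.8%, 5.51 to 23.4%) with a median lower score of 69.5, below the 124 of all members. The surface glycoprotein gene Thy1 had the highest (253 and 361), followed by the fibre-associated genes Mfap4 (105 and 174) and Fbln5 (85 and 109). The proteoglycan gene Ogn had 54 and 60, Dcn had 49 and 80, and the collagen gene Col3a1 had 66 and 32. Replicate 2 gave the higher score at 5 of the 6. The median describes the listed genes alone. Omd, a matrix proteoglycan gene outside the list, had regions of 270 and 454 and of 53 and 84. No gene of 5 lists with markers of epithelium, endothelium and blood, muscle and cartilage, neurons and glia or other organs had a member region. The count of 0 of 126 allows a share of up to 2.38%, taken as 3 counts of the total and not as a Wilson limit. Without replicate 1, that is with the peaks of replicate 2 alone, 1 muscle and cartilage marker had a member region. In the main count, 0 of the 126 genes had a stronger gene-end region either.

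**Figure D5:**
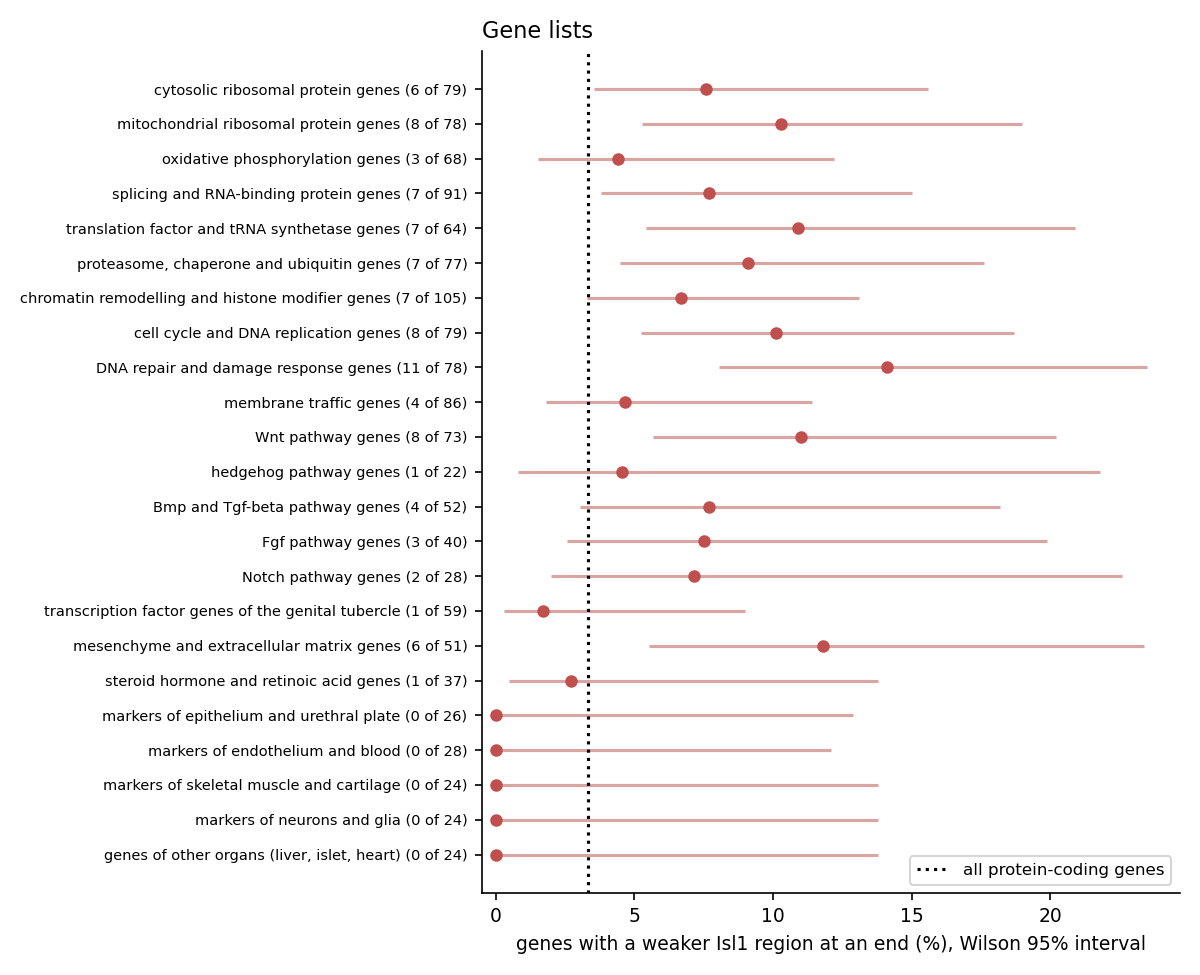
Share of the genes of each list that had a weaker region within 1 kb of an end (x axis, percent with Wilson 95% intervals), with the count of genes beside each list name. The dotted line marks 3.31% of all protein-coding genes, and DNA repair genes lie highest at 14.1% while the 5 marker lists at the bottom are at 0.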

How the data were processed

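Titles gave the group of each sample (Isl1 ChIP or input) and its replicate number. The authors deposited 1 peak list per ChIP sample in mm10, holding a position and a score (whole numbers) for each peak. Per the submitters' processing notes, the tools were Trimmomatic 0.35, Bowtie2 2.2.6, MACS2 2.1.0.20150731 and bedtools. Not given in the sources used here: their order and settings, the score's formula and how the inputs were used. A site under the calling threshold has no peak, so a gene without a region is not shown to be unbound.

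Shared regions, centres and classes were computed with Python 3.11.15, pandas 2.3.3, numpy 2.4.6 and scipy 1.17.1, and the code was checked on simulated peaks. Gene ends came from a RefSeq table (GRCm38.p6, 21887 protein-coding genes). It gives no strand, so a start was told from a far end only for the 17492 genes with an entry in RefSeq's promoter table. Promoters of chromosome 18, which held 17 members, were not used. Shares carry Wilson 95% intervals and differences Newcombe 95% intervals, for counting error only. No test across many features was run.

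The members, gene lists and words were chosen with earlier results of these data known. Named genes were the 5 regions on each side of the score limit, the 10 highest and 5 lowest members by lower score, the 5 widest, the 5 with the greatest ratio between replicates, up to 10 genes with several regions, and up to 4 genes of each list by lower score. Genes named outside this rule are the other members of short lists, the divergent pair Mrps11 and Mrpl46, the homeobox genes Hoxa10 and Emx2, and the far-end and central-word examples. They were chosen after their values were seen. Alternatives changed the distance limit, the overlap, the centre, the score rule, the gene set and the replicates used.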

Additional observations from a re-analysis of the deposited data

How the results depend on the processing

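Each of the 5 main values was recomputed with another distance, overlap, centre, score rule, gene set or single list, except that the promoter words were not recomputed with all genes of the table. The count of members stayed within 1.5 times of 613, and the number of list genes within 1.5 times of 94. The share at gene starts (91.6%) was 95.2% with a distance limit of 500 bp, 88.3% with 2 kb and 84.4% with all genes of the table. The standard deviation between the medians of the replicates' own peak widths, 155 and 154 bp, was 0.707 bp. It is not a spread of the joined width, whose median was 173 bp in the main count. The joined median was 178 bp at 2 kb, 171 bp with a reciprocal overlap of 50% and 174 bp with the centre of the joined span. It was 170 bp with the mean score under the limit, 166 bp with the higher score under the limit and 188 bp with all genes. With replicate 1 or replicate 2 left out, the width was 142 to 145 bp. There each width is that of a single peak, and peaks of 1 list alone enter the set. The share with the LIM homeodomain word (4.38%) kept within its interval under every alternative run for it, and was 4.33% in CpG-rich windows, an alternative added after seeing the data. Of 230 list counts under alternatives, 19 moved by more than 1.5 times, such as Wnt genes, 8 in the main count, 5 at 500 bp or without replicate 2, and 4 with the higher score under the limit. Of 198 word shares, 3 left the interval of the main value. No paired analysis was possible because peak lists exist for the ChIP samples alone, and the inputs that share their replicate numbers have none. The lists give no read totals, so depth could not be weighed, and far-end results rest on 41 regions.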
